A study of Homo sapiens with 18 samples.

Results

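The genes described here encode the proteins of the cytosolic ribosome. They were chosen by symbol alone, as protein-coding RefSeq genes of GRCh38 named RPL or RPS with a number and an optional A, X or L ending, together with RPLP0 to RPLP2 and RPSA. This gave 81 of the 19974 protein-coding genes on chromosomes 1 to 22 and X. The symbols follow the rule whatever was measured at the genes. RPS6K kinases, readthrough genes and pseudogenes are not among them.

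Each ribosome consists of a large and a small subunit. The small subunit reads the messenger RNA, and the large subunit joins amino acids and carries the stalk that recruits elongation factors. The ribosomal protein genes are transcribed at high level in dividing cells, and most of their messages begin with a pyrimidine tract through which growth signals control translation. Loss of 1 copy of several of them causes Diamond-Blackfan anaemia, a failure of red cell production, and some are altered in leukaemia.

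The study profiled AML1-ETO, the fusion of RUNX1 (AML1) with RUNX1T1 (ETO) that arises from the t(8;21) translocation, by CUT&RUN in Kasumi-1 cells, a human t(8;21) acute myeloid leukaemia line. Every group used the same line, in which the fusion carries a Flag tag. GFP-positive cells were sorted 3 days after transduction, as control or with knockdown (KD) of the microRNA miR-130a, and chromatin was profiled with anti-ETO, anti-Flag or mouse IgG in 3 libraries per group (18 libraries in all). The labels do not say what the control cells were transduced with, nor whether an untagged fusion was also present. The comparison addresses where the fusion lies when miR-130a is reduced.

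The values are peak positions. The single-antibody lists, 1 for each of the 2 antibodies in each condition, number 4, with 14264 and 22594 anti-ETO intervals and 23162 and 25961 anti-Flag intervals in control and knockdown. By their names, the authors' further lists hold intervals called by both antibodies, and of these the ones shared by the conditions, unique to control or unique to knockdown. An interval of these further lists can span joined single-antibody intervals, so each antibody or condition may cover only part of it. None of the lists carries a height, score or value per library. Without values per library there is no replicate error and no test, and the depth is unknown for every call. The lists hold no IgG intervals, so none were analysed here. A gene is said to be called in a list where at least 1 interval has a base within 1 kb of either end of the gene, and the main counts stand beside the same share over all protein-coding genes.

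The starts of 6 genes show the sequences on which the intervals lie. Among genes with an annotated start, RPS25 and RPS27L are those with a control-unique interval across it. RPS14 and RPS26 are those with a knockdown-unique one. In RPS25, RPS14 and RPS26 an anti-ETO interval of that condition lay across the start, and no anti-Flag interval did. RPL11 and RPL10 stand for the genes with a shared interval across the start, and all 6 were chosen after their values were seen. Each line gives 250 bases before the outermost RefSeq start and the first 20 bases from it, in the direction of transcription (GRCh38.p14). RPL11 is chr1:23691529-23691798 on the plus strand and RPL10 is chrX:154397815-154398084 on the plus strand. RPS25 is chr11:119018324-119018593 on the minus strand and RPS27L is chr15:63157458-63157727 on the minus strand. RPS14 is chr5:150449720-150449989 on the minus strand and RPS26 is chr12:56041668-56041937 on the plus strand. Capitals mark exact matches, on either strand, of the RUNX core TGTGGT, which the DNA-binding domain of AML1-ETO recognises, and of the ETS sequence CCGGAAG.
RPL11: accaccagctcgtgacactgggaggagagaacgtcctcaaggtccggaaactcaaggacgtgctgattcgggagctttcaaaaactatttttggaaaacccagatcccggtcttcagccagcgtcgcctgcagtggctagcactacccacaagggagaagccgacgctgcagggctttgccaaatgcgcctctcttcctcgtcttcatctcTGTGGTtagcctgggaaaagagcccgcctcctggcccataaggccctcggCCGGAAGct
RPL10: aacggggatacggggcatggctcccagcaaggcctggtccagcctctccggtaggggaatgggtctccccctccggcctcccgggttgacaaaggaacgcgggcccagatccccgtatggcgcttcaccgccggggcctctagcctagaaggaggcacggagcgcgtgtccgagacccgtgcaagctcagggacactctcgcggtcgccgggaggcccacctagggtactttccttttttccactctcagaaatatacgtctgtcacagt
RPS25: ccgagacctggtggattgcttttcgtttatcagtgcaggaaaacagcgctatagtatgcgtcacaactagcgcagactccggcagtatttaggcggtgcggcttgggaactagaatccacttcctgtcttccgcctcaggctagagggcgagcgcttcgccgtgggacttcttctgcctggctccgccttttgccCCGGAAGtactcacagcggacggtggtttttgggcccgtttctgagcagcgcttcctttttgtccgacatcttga
RPS27L: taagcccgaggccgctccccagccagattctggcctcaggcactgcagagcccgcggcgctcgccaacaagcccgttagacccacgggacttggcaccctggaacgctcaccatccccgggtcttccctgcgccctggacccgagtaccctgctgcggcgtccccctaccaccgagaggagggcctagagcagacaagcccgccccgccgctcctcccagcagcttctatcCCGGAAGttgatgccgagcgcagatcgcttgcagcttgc
RPS14: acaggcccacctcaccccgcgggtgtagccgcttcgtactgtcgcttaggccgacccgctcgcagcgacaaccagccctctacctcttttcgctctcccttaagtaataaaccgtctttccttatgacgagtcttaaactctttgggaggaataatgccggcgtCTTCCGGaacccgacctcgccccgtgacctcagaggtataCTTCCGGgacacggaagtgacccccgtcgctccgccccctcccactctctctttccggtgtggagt
RPS26: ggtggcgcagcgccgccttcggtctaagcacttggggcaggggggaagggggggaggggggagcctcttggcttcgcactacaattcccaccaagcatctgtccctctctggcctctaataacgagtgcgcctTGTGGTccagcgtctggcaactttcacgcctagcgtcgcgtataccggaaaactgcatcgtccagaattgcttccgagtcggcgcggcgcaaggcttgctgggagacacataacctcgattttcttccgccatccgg

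The RUNX core was found in RPL11 at -39 and in RPS26 at -117, counted in bases from the start, which is 0. The ETS letters were found in RPL11, RPS25, RPS27L and, at 2 places, in RPS14. RPL10 held neither. These are matches of letters and not measured sites.

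Intervals of a single antibody lay near a majority of the ribosomal protein genes in 3 of the 4 single-antibody lists. Anti-ETO called 48 of the 81 genes in control (59.3%, against 35.1% of all protein-coding genes) and 53 after knockdown (65.4%, against 41.7%). Anti-Flag called 47 in control (58.0%, against 37.1%) and 37 after knockdown (45.7%, against 30.6%). A two-antibody interval stood at 38 genes in control (46.9%, against 32% of all genes) and at 38 after knockdown (46.9%, against 29%). Shared intervals stood at 30 genes (37.0%, against 25.4%), control-unique ones at 10 (12.3%, against 8.54%) and knockdown-unique ones at 10 (12.3%, against 6.86%).

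**Figure D1:**
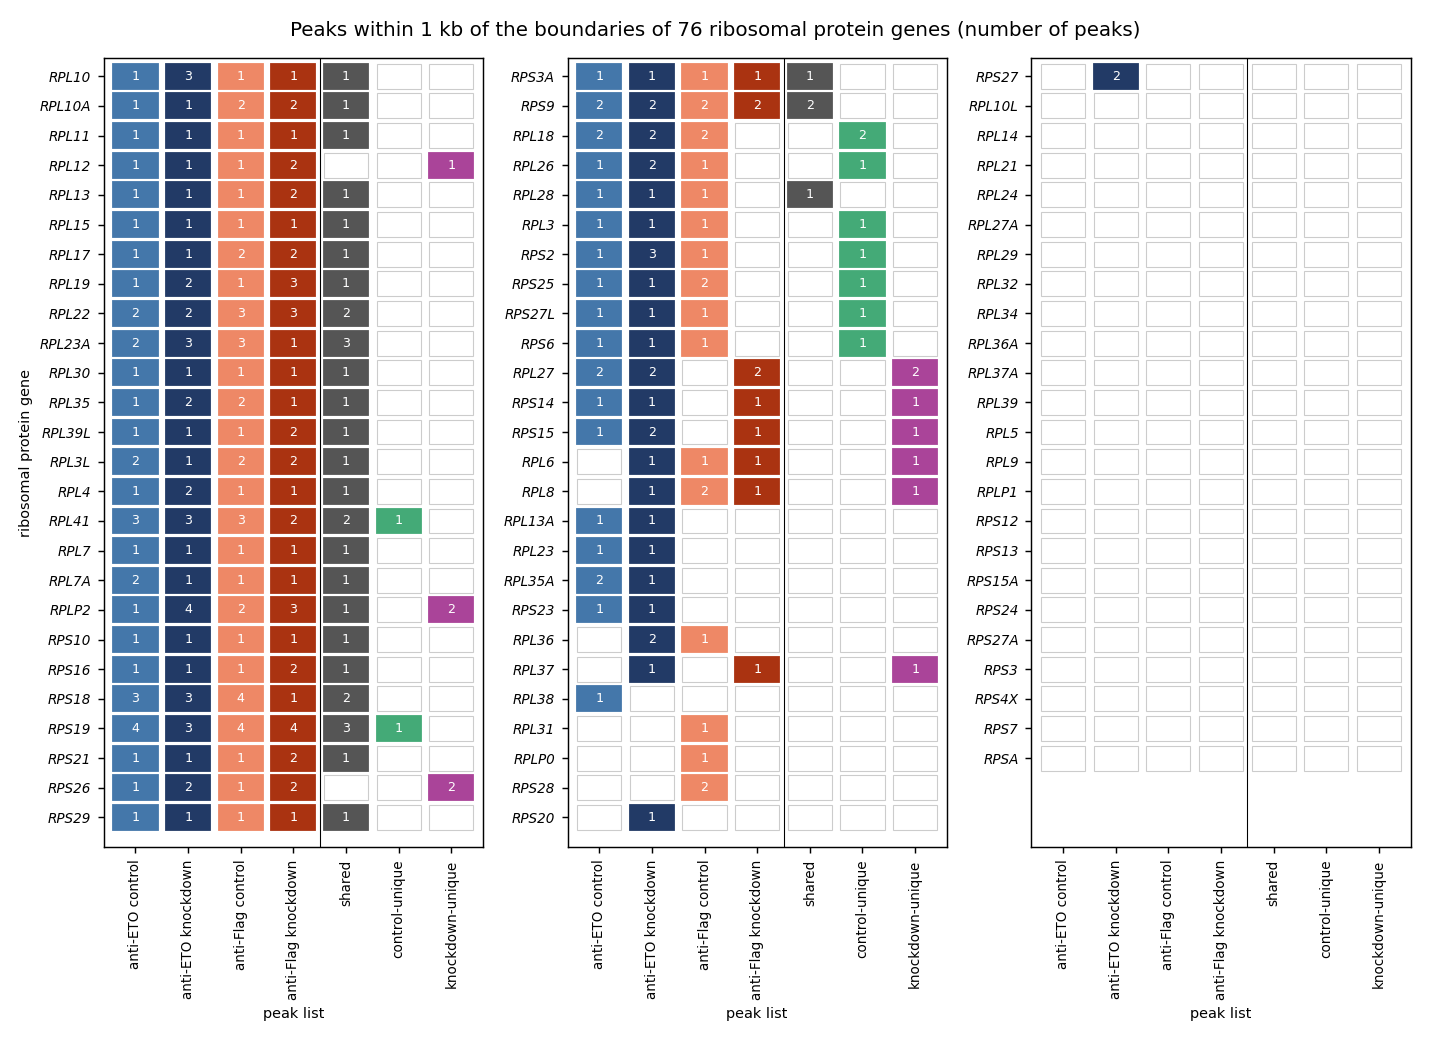
Each row is a gene, for 76 of the 81 ribosomal protein genes, and each column 1 peak list; a filled square gives the number of intervals within 1 kb of the gene's boundaries and an open square stands for none. The left panel holds genes called in all 4 single-antibody lists, and the last 23 genes of the right panel have no interval in any list.

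All 4 single-antibody lists called 31 genes (38.3%, against 26% of all protein-coding genes), and none of the 4 called 23 (28.4%, against 54.3%). The 20 large-subunit genes in all 4 lists included RPL3L, RPL4, RPL7, RPL7A, RPL10, RPL10A, RPL11, RPL12, RPL13, RPL15, RPL17, RPL19, RPL22, RPL23A, RPL30, RPL35, RPL39L, RPL41 and RPLP2. The 11 small-subunit genes included RPS3A, RPS9, RPS10, RPS16, RPS18, RPS19, RPS21, RPS26 and RPS29. Those with no call in any list were RPL5, RPL9, RPL10L, RPL14, RPL21, RPL24, RPL27A, RPL29, RPL32, RPL34, RPL36A, RPL37A, RPL39, RPLP1, RPS3, RPS4X, RPS7, RPS12, RPS13, RPS15A, RPS24, RPS27A and RPSA. The other 27 genes were called in 1 to 3 lists (33.3%, against 19.7%). Calls in all 4 lists and calls in some of them were each more frequent than over all genes, and genes with no call were less frequent.

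Large and small subunit genes had like shares with anti-ETO: 29 of 49 (59.2%) and 19 of 32 (59.4%) in control, against 35.1% of all protein-coding genes, and 32 and 21 after knockdown (65.3% and 65.6%, against 41.7%). With anti-Flag the large-subunit count was 29 in control (59.2%, against 37.1%) and 24 after knockdown (49.0%, against 30.6%). The small-subunit count was 18 and 13 (56.2% and 40.6%). Of the 4 paralogs with an L ending, RPL3L and RPL39L were called in all 4 lists, RPS27L in 3 and RPL10L in none. These counts were not tested against each other.

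Ribosomal protein genes tend to be short, lie close to other genes and lie often on gene-rich chromosomes, so the shares were set beside narrower backgrounds. Among the 10688 protein-coding genes no longer than the longest ribosomal protein gene (27723 bp), control anti-ETO called 34.5% and knockdown anti-Flag 32.8%. Weighting all protein-coding genes to the chromosomes of the ribosomal protein genes gave 36.2% and 32.6%. Another protein-coding gene had a boundary within 2 kb of the boundaries of 37 ribosomal protein genes. Readthrough genes counted as neighbours here, and RPS10 had no neighbour other than its own, RPS10-NUDT3. The 44 without such a neighbour were called by anti-ETO in 24 cases in control (54.5%, against 26.3% of the 12707 protein-coding genes without one) and by anti-Flag in 19 cases after knockdown (43.2%, against 21.8%). For the 37 with a neighbour the shares were 64.9% with control anti-ETO, against 50.5% of such genes, and 48.6% with knockdown anti-Flag, against 45.8%. Their knockdown-unique share, 8.11%, was below the 10.8% of its background.

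**Figure D2:**
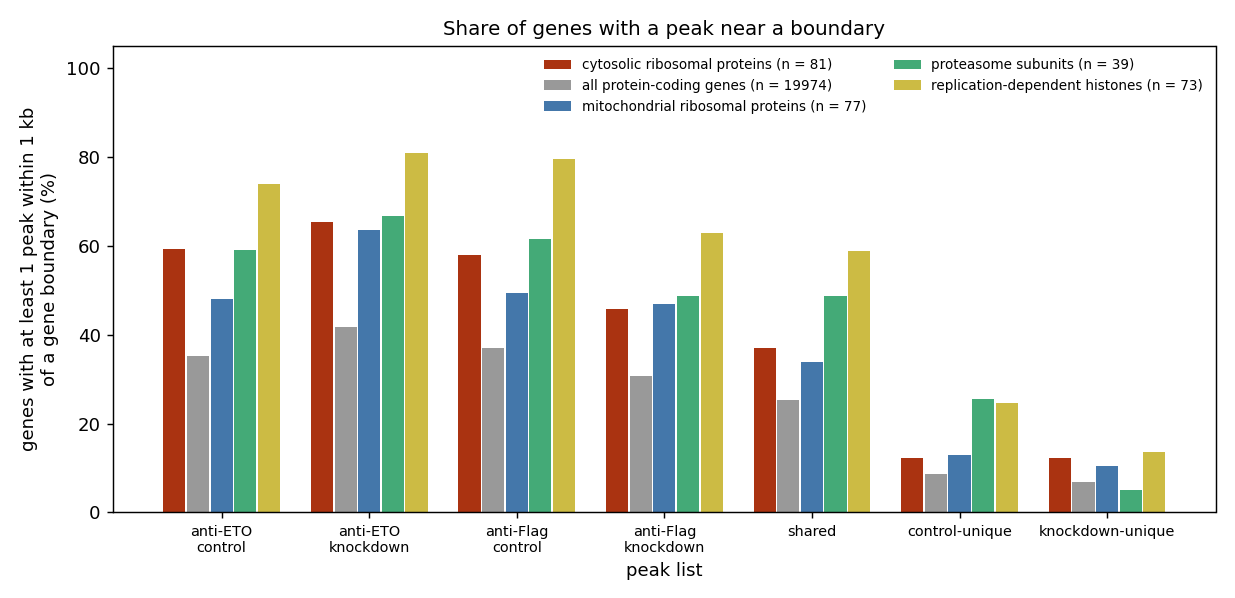
Bars give the percentage of genes with at least 1 interval within 1 kb of a boundary in each peak list, for the cytosolic ribosomal protein genes, all protein-coding genes and 3 other gene sets. In control anti-ETO the ribosomal protein genes stand at 59.3% against 35.1% of all genes, and replication-dependent histone genes stand highest in 6 of the 7 lists.

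Other genes for large protein complexes also had shares above that of all genes in the 4 single-antibody lists and the shared list. The knockdown-unique share of proteasome genes, 5.13%, was below the 6.86% of all genes. Of 77 mitochondrial ribosomal protein genes, 37 (48.1%) were called by control anti-ETO and 49 (63.6%) by knockdown anti-ETO. Of 39 proteasome subunit genes, 23 (59.0%) and 26 (66.7%) were called, and of 73 replication-dependent histone genes 54 (74.0%) and 59 (80.8%). Shared intervals stood at 33.8% of the mitochondrial ribosomal, 48.7% of the proteasome and 58.9% of the histone genes, with the cytosolic ribosomal protein genes at 37.0%. The cytosolic set was thus not the highest of these 4 sets in any of the 7 lists. Histone genes lie in clusters, where 1 interval can serve several genes.

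The chromosomes differed. All 18 ribosomal protein genes on chromosomes 17 and 19 had a call in at least 1 single-antibody list (60.4% of all protein-coding genes there), and 40 of the 63 on other chromosomes did (43.4%). With control anti-ETO, 16 of the 18 were called (88.9%, against 44.3% of all protein-coding genes on both chromosomes) and 32 of the 63 (50.8%, against 33.7%). With knockdown anti-Flag, 9 of the 18 were called (50%, close to the 47.6% there) and 28 of the 63 (44.4%, against 28%). Every ribosomal protein gene also had a call on chromosomes 5, 8, 9 and 12, with 3 or 4 genes each. The same held on chromosomes 18, 20 and 22, with 1 gene each. On these chromosomes 38.9% to 59.2% of all protein-coding genes had a call. Calls were sparser on chromosomes 3 (3 of 8 genes), 4 (1 of 3), 11 (2 of 5) and X (1 of 4). There 43.5%, 30.8%, 42.6% and 26.8% of all protein-coding genes had a call. The only genes on chromosomes 10 and 13 had no call (against 42.9% and 36.4% of all genes there with one). On chromosome 2, control anti-ETO called 0 of 4 genes (against 35% of the 1254 protein-coding genes there), and 1 of them, RPL31, had a control anti-Flag interval.

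Between the conditions, nearly all genes with an anti-ETO call kept one. Of 48 genes called by anti-ETO in control, 47 were called after knockdown (97.9%, against 95.8% over all protein-coding genes). These are counts of genes and not of kept intervals. Control and knockdown anti-ETO intervals overlapped by at least 1 bp at 45 genes, and by 50% of both at 33. No share over all genes is given for these overlaps. RPL38 was the 1 gene with an anti-ETO call in control only (1.23% of the 81, against 1.48% of all genes). Anti-ETO called 6 genes in knockdown only (7.41%, against 8.03%): RPL6, RPL8, RPL36, RPL37, RPS20 and RPS27. The net change of 5 genes, or 6.17 percentage points, was close to the 6.55 points over all protein-coding genes. Its direction depended on the lists: it was -1 gene with the widest 14264 intervals of each list and 16 genes with the wider 50% of each.

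Anti-Flag moved the other way. Of 47 genes called by anti-Flag in control, 33 were called after knockdown (70.2%, against 75.5% over all protein-coding genes). Control and knockdown anti-Flag intervals overlapped by at least 1 bp at 33 genes, and by 50% of both at 28. The 14 genes with an anti-Flag call in control only (17.3%, against 9.1% of all genes) included RPL3, RPL18, RPL26, RPL28, RPL31, RPL36, RPLP0, RPS2, RPS6, RPS25, RPS27L and RPS28. RPL28 nevertheless had a shared interval of 1710 bp, from -1935 to -226 bp. Its missing knockdown anti-Flag call thus holds only within 1 kb of the gene's boundaries. Anti-Flag called 4 genes in knockdown only (4.94%, against 2.58%): RPL27, RPL37, RPS14 and RPS15. The net change was -10 genes, or -12.3 percentage points, beside -6.52 points over all protein-coding genes. Among the 44 genes without a close neighbour the net change was -1 gene, or -2.27 points, smaller than the -5.99 points over all genes without one. Among the 37 with a neighbour it was -9, or -24.3 points, beside -7.44 over all such genes.

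Set against each other, both antibodies called 40 of the 81 genes in control, beside 6441 of all 19974 protein-coding genes. Anti-ETO alone called 8 (9.88%, against 2.86% of all genes) and anti-Flag alone 7 (8.64%, against 4.84%). After knockdown both called 37 of the 81, beside 5855 of the 19974. Anti-ETO alone then called 16 (19.8%, against 12.3%) and anti-Flag alone 0 (0%, against 1.25%). The 8 genes with anti-ETO alone in control were RPL13A, RPL23, RPL27, RPL35A, RPL38, RPS14, RPS15 and RPS23. Of these, RPL27, RPS14 and RPS15 had calls of both antibodies after knockdown, and RPL38 had none.

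Control-unique intervals numbered 11 at 10 genes. In 9 of the 11, anti-ETO still had an interval there after knockdown and anti-Flag had none (81.8%, against 83.8% of the 1512 control-unique intervals near any protein-coding boundary). RPS6, whose protein is the substrate of the S6 kinases, had an interval of 306 bp with control anti-ETO and 260 bp with control anti-Flag. After knockdown anti-ETO covered 808 bp there and anti-Flag had no interval. RPL3, a protein of the peptidyl transferase region, had 266 bp and 353 bp in control, 362 bp with anti-ETO after knockdown and no anti-Flag interval. These intervals lay before the start, at -609 to -344 bp with control anti-ETO for RPL3 and at -439 to -134 bp for RPS6, counted from the gene's start with negative values before it.

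RPL26, a gene mutated in Diamond-Blackfan anaemia, had control intervals of 508 bp with anti-ETO and 192 bp with anti-Flag, and 526 bp with anti-ETO alone after knockdown. RPS27L, the paralog of RPS27 that p53 induces, had intervals of 507 bp, 477 bp and 515 bp in the same order, all across the start. RPL18 had 2 control-unique intervals, of 409 bp and 192 bp, on either side of its start and also within 1 kb of SPHK2. RPS25 had a control-unique interval of 928 bp across its start, also within 1 kb of TRAPPC4. Its control anti-Flag intervals lay on either side of the start, at -602 to -179 bp and 22 to 325 bp. In each of these genes the anti-Flag interval of the control had no counterpart near the gene after knockdown.

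Other control-unique intervals lay beside genes that were called in other ways too. RPL41, which encodes the smallest ribosomal protein, had one of 265 bp across its end, near ZC3H10, beside 2 shared intervals of 2031 and 629 bp. RPS2 had one of 860 bp near NDUFB10, with an anti-ETO interval of 941 bp there after knockdown. RPS19, the gene most often mutated in Diamond-Blackfan anaemia, had one of 527 bp at -1208 to -682 bp, where anti-Flag and not anti-ETO had an interval after knockdown. RPS19 also had 3 shared intervals, of 354, 1181 and 581 bp, the first before its start and the others within 1 kb of its end.

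Knockdown-unique intervals numbered 13, also at 10 genes, and had a different make-up. In 5 of the 13, control anti-ETO had an interval and control anti-Flag had none (38.5%, against 11.3% of the 1288 knockdown-unique intervals near any protein-coding boundary). In 4, control anti-Flag alone had one (30.8%, against 50.9%), in 3 neither had (23.1%, against 35.8%), and in 1 both had. The 5 intervals with control anti-ETO alone belong to 4 genes, RPL27, RPS14, RPS15 and RPS26, so they are not independent. No test was made.

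RPS14, a gene lost with deletions of the long arm of chromosome 5 in myelodysplastic syndrome, had a control anti-ETO interval of 412 bp and no control anti-Flag interval. After knockdown it had 467 bp with anti-ETO and 167 bp with anti-Flag, the latter at -251 to -85 bp. The knockdown-unique interval of 467 bp (chr5:150449549-150450015) holds both ETS matches printed above. RPS15, which is mutated in chronic lymphocytic leukaemia, had 182 bp with anti-ETO in control and no anti-Flag interval there. After knockdown it had anti-ETO intervals of 382 and 181 bp and an anti-Flag interval of 454 bp. RPL27, another Diamond-Blackfan gene, had 2 anti-ETO intervals in each condition, on both sides of its start, and 2 anti-Flag intervals after knockdown only.

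RPS26, also mutated in that anaemia, had calls in all 4 lists and no shared interval. Control anti-ETO had an interval across the start (-5 to 188 bp) and control anti-Flag one before it (-494 to -302 bp), and these do not overlap. After knockdown both antibodies had both intervals, which gave knockdown-unique intervals of 443 and 217 bp although each place had a control call by 1 antibody. RPL12, of the base of the stalk, likewise had calls in all 4 lists and a knockdown-unique interval of 1152 bp near LRSAM1, since its control anti-ETO interval of 230 bp and its control anti-Flag interval of 433 bp lay apart.

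At RPL6 the knockdown-unique interval of 703 bp lay at the outer boundary of the gene record and within 1 kb of PTPN11, while the outermost start listed for RPL6 lies 7393 bp further in. Control anti-Flag had an interval of 432 bp there and control anti-ETO had none. At RPL8 the interval of 339 bp had a control anti-Flag call of 279 bp and no control anti-ETO call. RPL37 had one of 778 bp that neither antibody called in control. RPLP2, a stalk protein, had 2 past its end, of 430 and 549 bp, beside a shared interval of 2348 bp. Its partners in the stalk differed from it, with a single control anti-Flag interval of 407 bp at RPLP0 and no interval at RPLP1.

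The widest shared intervals often reached a second gene. That of RPL23A, a protein at the exit of the peptide tunnel, measured 5623 bp and lay within 1 kb of TLCD1 and NEK8. The knockdown anti-ETO interval there measured 5606 bp, and knockdown anti-Flag had none within 1 kb of the gene at that end. RPS9, a decoding protein, had one of 2847 bp across its end, at which all 4 single-antibody lists had an interval, of 1718 and 2715 bp with anti-ETO and 2675 and 2618 bp with anti-Flag in control and knockdown. RPL10A had one of 2467 bp across its start and near FANCE, and RPL17 one of 2349 bp across its end and near C18orf32. The widest single-antibody interval near RPL10A measured 1881 bp, with knockdown anti-ETO. RPS18 had one of 2288 bp across its end and near B3GALT4 and WDR46, with the same extent as the knockdown anti-ETO interval. Control intervals there measured 570 and 549 bp with anti-ETO and 509 and 460 bp with anti-Flag. Knockdown anti-Flag had none within 1 kb of that end. Where an interval lies near 2 genes, the lists do not tell to which it belongs.

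Of the 6 genes altered in leukaemia or lost with chromosome 5, RPL5 had no interval in any list. RPL5 and RPL11 proteins bind MDM2 and so restrain p53 breakdown when ribosomes fail to assemble. RPL11 had 540 bp with anti-ETO and 529 bp with anti-Flag across its start in control, and 688 bp with anti-ETO across it after knockdown. Its knockdown anti-Flag interval measured 199 bp and ended at -119 bp, before the start. RPL10, which is mutated in T-cell leukaemia, had intervals of 1304 and 1290 bp with anti-ETO and 1032 and 1037 bp with anti-Flag in control and knockdown, all across its start. RPL22, which is deleted in T-cell leukaemia, had shared intervals of 551 and 422 bp on either side of its start and none across it in any of the 4 lists. RPS27A and RPSA had no interval in any list.

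In the 15 genes linked to Diamond-Blackfan anaemia, anti-ETO called 9 in control (60.0%) and 10 after knockdown (66.7%), beside 59.3% and 65.4% of all 81 genes. Anti-Flag called 9 (60.0%) and 7 (46.7%), beside 58.0% and 45.7%, so the group had about the shares of the whole set. RPS7, RPS24 and RPL5 were called in no list. RPL35A had an anti-ETO interval across its start in both conditions (595 bp in control, 896 bp after knockdown) and no anti-Flag interval. RPS29 had intervals across its start in all 4 lists, between 1605 and 2090 bp wide, in a stretch within 1 kb of LRR1. RPS28 had control anti-Flag intervals only.

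The position of the intervals around the start was examined for the 64 ribosomal protein genes with an annotated strand and start. Anti-ETO intervals lay within 1 kb of the gene's start at 33 of them in control (51.6%, against 35.1% of the 15813 protein-coding genes with such a start) and at its end at 9 (14.1%, against 5.01%). An interval across the start, however, was found at 14 with control anti-ETO (21.9%, against 22%) and 17 with knockdown anti-ETO (26.6%, against 26.6%). With anti-Flag it was found at 9 in control (14.1%, against 19.3%) and 4 after knockdown (6.25%, against 12.2%). The share of genes with an interval near the start was thus higher than over all genes, while the share with an interval across it was level with theirs for anti-ETO and lower for anti-Flag.

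**Figure D3:**
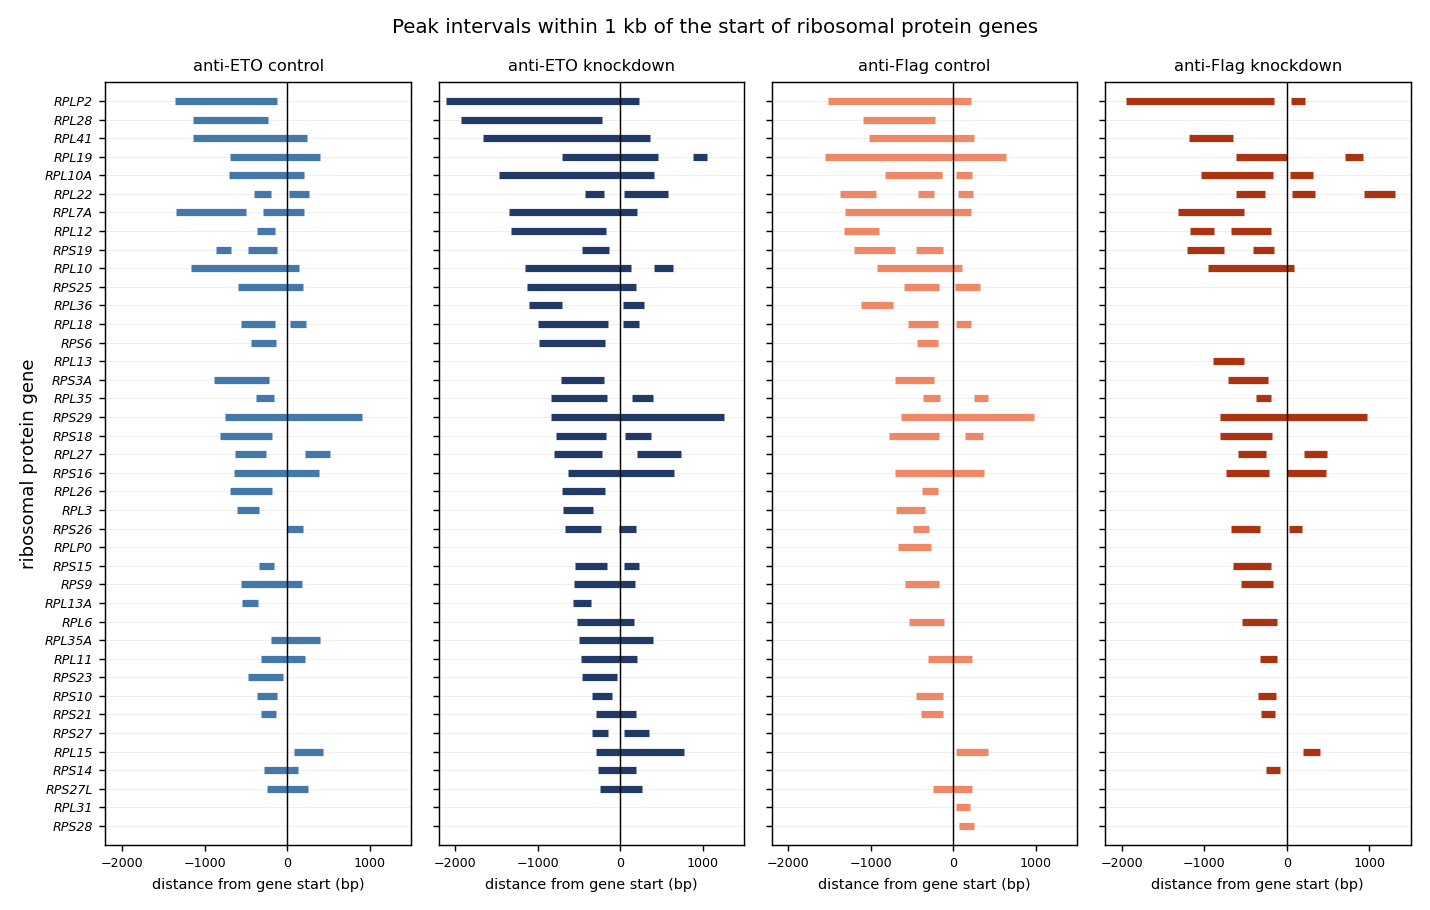
Each row is a ribosomal protein gene with an interval within 1 kb of its start, and each bar 1 interval, drawn by its distance in bp from the gene's start (vertical line, transcription to the right), in 4 panels by antibody and condition. Many bars end before the line or begin just after it, as at RPL22 and RPL18.

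Among genes with an interval within 1 kb of a listed start, the nearest interval crossed the start in 14 of 33 ribosomal protein genes with control anti-ETO (42.4%, against 59.4% of 5851 genes) and in 17 of 35 with knockdown anti-ETO (48.6%, against 61.0%). With anti-Flag it crossed in 9 of 31 in control (29.0%, against 50.2%) and in 4 of 24 after knockdown (16.7%, against 39.1%). It lay wholly before the start in 15 of 33, 10 of 35, 14 of 31 and 15 of 24 genes in the same order, or 45.5%, 28.6%, 45.2% and 62.5%. Over all genes those shares were 19.8%, 16.2%, 22.1% and 25.4%. Where the nearest interval lay before the start, its median distance with control anti-ETO was -161 bp for the ribosomal protein genes and -163 bp for all genes. Where it lay after the start, the medians were 49.5 and 37 bp.

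**Figure D4:**
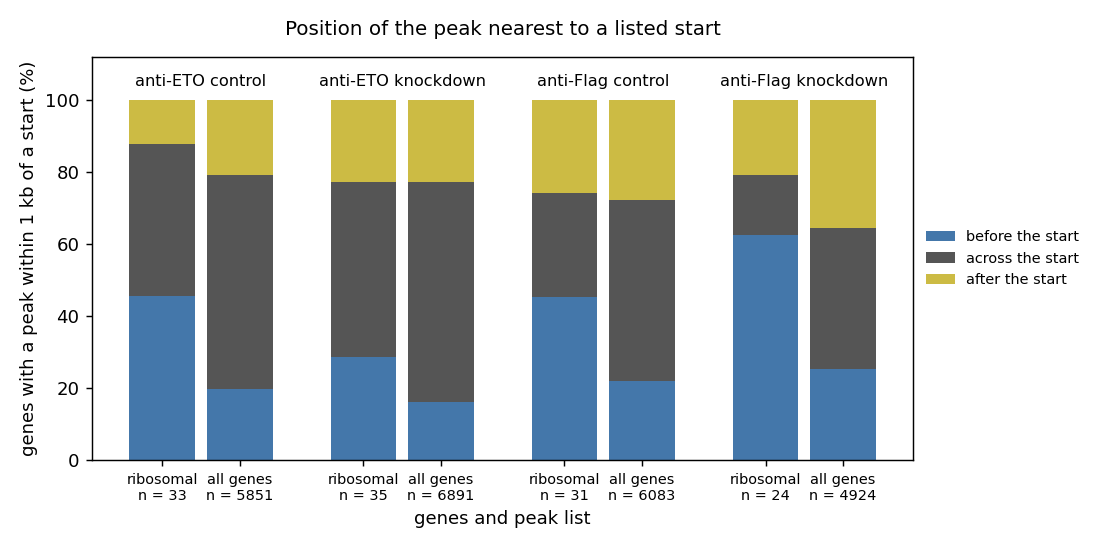
Stacked bars give, for ribosomal protein genes and for all protein-coding genes with an interval within 1 kb of a listed start, the percentage whose nearest interval lies before, across or after it, by antibody and condition (n below each bar). The before part is larger for ribosomal protein genes in all 4 pairs, at 62.5% against 25.4% with knockdown anti-Flag.

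Interval width did not set the ribosomal protein genes far apart. The median width of intervals near them was 452 bp with control anti-ETO (63 intervals) against 499 bp near any protein-coding boundary, and 529.5 against 533 bp with knockdown anti-ETO (84 intervals). With anti-Flag it was 431 bp (73 intervals) against 460 bp in control and 382 bp (61 intervals) against 406 bp after knockdown. In the 4 single-antibody lists the widest interval near these genes measured 5606 bp and the narrowest 166 bp. The part of width in the position of the intervals was not tested.

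Some genes had intervals on both sides of the start with none across it. Shares are of genes with an interval within 1 kb of a listed start. With control anti-ETO there were 3 such ribosomal protein genes, RPL18, RPL22 and RPL27 (9.09% of 33, against 8.29% of 5851 genes). With knockdown anti-ETO there were 8. The latter were 22.9% of the 35 ribosomal protein genes with an interval there, against 12.6% of 6891 genes. They were RPL18, RPL22, RPL27, RPL35, RPL36, RPS15, RPS18 and RPS27. At RPL18 the knockdown anti-ETO intervals ended at -148 bp and began again at 35 bp. At RPS27 they ended at -152 bp and began at 42 bp, and at RPS15 at -164 and 41 bp. With anti-Flag such pairs stood at 6 genes in control (19.4%, against 15.7%) and 5 after knockdown (20.8%, against 20.3%).

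The promoter windows of RefSeq, 250 bases before to 50 after a start, were searched for 64 ribosomal protein genes, 1 window a gene at the outermost start, in GRCh38.p14. There was no entry for 17 genes, RPL5, RPL23A and RPS2 among them. Exact letters were sought on both strands and set beside all 15813 protein-coding windows. The pyrimidine letters CTTTTCC or CTTTCC stood in 42 windows (65.6%, against 31.9%), and the ETS letters CCGGAAG in 22 (34.4%, against 14.1%). The pyrimidine letters could lie anywhere in the window and on either strand. Their count is therefore not the number of messages that begin with a pyrimidine tract. The GC box GGGCGG stood in 36 (56.2%, against 58.3%), and TATAAA in 6 (9.38%, against 9.75%). Median GC content was 59.3% against 62.7%.

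The RUNX core TGTGGT was present in 12 windows (18.8%, against 11.1% of all windows): those of RPL4, RPL6, RPL11, RPL15, RPL18, RPL22, RPL27, RPL38, RPS3A, RPS18, RPS21 and RPS26. All 12 belonged to the 43 ribosomal protein genes with a call in at least 1 single-antibody list (27.9%), and 0 to the 21 without a call. A call counts at either end of a gene, however, while the letters were sought only around the start. At RPL4 and RPL38 the intervals lay only at the gene's end. At RPL6 they lay at the outer boundary, 7393 bp from the outermost listed start. The split therefore does not place the letters at the intervals. Over all protein-coding genes the core was no more frequent in genes with a call, at 9.84% of 7467 against 12.1% of 8346 without one. The matched letters lay inside an interval of at least 1 single-antibody list in 5 of the 12 genes, RPL11, RPL15, RPL22, RPS3A and RPS21, and outside all of them in 7, against 26.3% inside for the 1748 windows of all genes with the core. In RPS3A the letters stood at -249 and -131 bp, and all 4 lists had an interval there that ended between -236 and -200 bp, so that only the first match was covered. In RPS26, RPL18 and RPL27 the match lay between the intervals before and after it.

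Other parts of the translation machinery were described in the same way. Among 7 ribosomal proteins that the symbol rule leaves out, RPL36AL and RPL7L1 were called in all 4 lists with shared intervals, FAU in all 4 with a control-unique interval, RACK1 in 3 with a knockdown-unique interval, and RPL22L1 and RPL26L1 in none. Of 16 translation factors and related genes, anti-ETO called 9 in control and 10 after knockdown (56.2% and 62.5%, against 35.1% and 41.7% of all protein-coding genes). Anti-Flag called 8 and 5 (50% and 31.2%, against 37.1% and 30.6%), so the knockdown share was close to that of all genes. EEF2, EIF3H and TPT1 had control-unique intervals, and EEF1A1, the main elongation factor, EEF1D, EEF1G, EIF3L and PABPC1 had shared ones. Of 12 genes for ribosome assembly and rRNA transcription, 7 had shared intervals (58.3%, against 25.4% of all protein-coding genes; NCL, NOP56, DKC1, POLR1A, POLR1B, UBTF and BOP1), and RRN3, NOP58 and PES1 had no call. Of 6 snoRNA host genes, GAS5, SNHG1, SNHG5 and ZFAS1 were called in all 4 lists and 2 in none. All 4 lists called 26% of all protein-coding genes. These hosts are long noncoding RNA genes, for which no share was computed.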

How the data were processed

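The libraries were 75-bp reads from both ends, of 200000 sorted cells each, with fragments of 150 to 400 bp and a planned depth of about 40 M reads, per the labels' protocols. The submitters' processing notes name fastp 0.19.5, Bowtie2 2.3.5, MACS2 2.2.5 and HOMER 4.8 and the builds hg38 and sacCer3, without their roles; peak settings, any IgG control and the treatment of replicates are not given in the sources used here. The threshold of a call bears on the length of a list and so on the counts. The 9 deposited files of the authors hold interval starts and ends in bp and no other value.

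Intervals were set against RefSeq genes (GRCh38.p14) in Python 3.11.15 with numpy 2.4.6 and pandas 2.3.3, with positions counted from 1. bedtools 2.31.1 gave the same count for 7 of 7 lists, and the functions were tested on simulated intervals. Gene starts came from the promoter table, of which 1 window a gene was searched.

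The members, gene lists and named genes were chosen with earlier results of these data known. Positions and widths are given for genes with a unique interval, the 6 with the widest shared interval and a fixed set of 10. Genes are not replicates, so counts were compared with the background and not tested. Alternatives were other distances, start only, interval centre, wider or equal-length lists, and smaller gene sets. RPS4Y1 and RPS4Y2 were left out because chromosome Y was not used. Some genes that enter the counts are not reported here by name.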

Additional observations from a re-analysis of the deposited data

How the results depend on the processing

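Of 96 recomputed counts and differences for the 7 lists and the comparisons of conditions and antibodies, 62 stayed within 1.5 times the value reported, 31 moved by more and 3 changed direction. The knockdown minus control difference of anti-ETO, 5 genes, became -1 with the widest 14264 intervals of each list. It was 8 within 500 bp, 2 at gene starts only, 16 with the wider 50% of each list and 2 without close neighbours. For anti-Flag the difference of -10 became -6 within 10 kb, -6 with the wider 50% and -1 without neighbours, and kept its direction in all 9 settings. Anti-ETO minus anti-Flag in control, 1 gene, had no stable direction: 0 within 2.5 kb, -3 within 10 kb, 2 at starts only, 2 by interval centre, -7 with the wider 50%, 12 with lists of one length and 4 without neighbours. In knockdown the difference of 16 was 9 within 10 kb and 7 without neighbours.

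The wider 50% of the lists gave 25 genes for control anti-ETO, 6 control-unique and 5 knockdown-unique. Control-unique genes numbered 18 within 10 kb, and knockdown-unique genes 16 within 2.5 kb and 26 within 10 kb. At starts only, among 64 genes, the counts were 35 for knockdown anti-ETO, 31 and 24 for anti-Flag in control and knockdown, 19 shared and 5 knockdown-unique. Among the 44 genes without neighbours they were 24 and 26 for anti-ETO, 20 and 19 for anti-Flag, 13 shared and 4 control-unique; both sets hold fewer genes. The causes of the other changes were not tested. The weighting of the background to chromosomes was chosen after seeing the data.

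No paired analysis was possible because the lists name no replicate, and for the same reason the planned omission of each replicate was not run. The depth behind a call is unknown, so a missing interval does not show that the fusion was absent.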
